A study of Mus musculus with 4 samples.

Results

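Beta cells of mice fed a high-fat diet (HFD) were compared between a library from Pax4 HH mice and a library from Pax4 WT mice. Pax4 HH mice are homozygous for R200H in the endogenous mouse Pax4 gene, the counterpart of human R192H, and the WT mice were their C57BL6/N littermates. Both HFD groups were 16 weeks old males that had eaten HFD for 4 weeks, and 2 further libraries came from 12 weeks old WT and HH males on standard chow diet (SCD). Every library was 1 pool of islets from 2 to 3 mice, so each group has 1 sample, no value below has a replicate error, and the SCD and HFD groups differ in age as well as diet. Cells were chosen by their counts of unique molecular identifiers (UMIs), the tags that mark single captured RNA molecules. A cell was kept with under 10% of UMIs from mitochondrial genes, 3000 to 50000 UMIs and 2000 to 5000 genes, and was taken as a beta cell when Ins1 and Ins2 held at least 5% of its UMIs and Gcg, Sst and Ppy each under 1%. This gave 4042 beta cells of the 22218 barcodes in the series, with 1150 in WT HFD and 2892 in HH HFD.

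Beta cells make, fold, package and secrete insulin in response to glucose. Proinsulin enters the endoplasmic reticulum (ER) through the translocon, is folded there by chaperones and disulfide isomerases, and is cut to insulin in secretory granules. PAX4 is a transcription factor needed to form beta cells in the embryo, and mature beta cells are recognised by factors such as MAFA and by the glucose transporter GLUT2, the product of Slc2a2. The question this comparison addresses is how the variant alters the beta cell transcriptome under the load of HFD.

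UMIs of a library's beta cells were summed per gene and scaled to CPM, the gene's share of all 34447625 beta cell UMIs in WT HFD and 72127864 in HH HFD. Ratios are log2 of HH over WT, and intervals are exact 95% intervals that cover counting error only, not differences between mice. Pax4 itself had 0 UMIs in all cells of all 4 libraries, which allows up to 0.0871 CPM in WT HFD beta cells and 0.0416 CPM in HH HFD beta cells and leaves the genotype labels without a check from these counts. The insulin genes, which chose the cells, were high in nearly all of them. Ins1 and Ins2 together held a median of 55.5% of a cell's UMIs in WT HFD and 55.6% in HH HFD. All 10 beta cell markers examined were found in every library. Few cells lay near the insulin limit, with 5 of 1150 WT and 17 of 2892 HH cells under 20%, 4 cells between 4% and 5% in each HFD library, and 3 in WT and 5 in HH between 5% and 6%.

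The HFD libraries differed in depth and in the cells kept. A beta cell held a median of 29868.5 UMIs and 4082.5 genes in WT HFD against 24254.5 UMIs and 3428 genes in HH HFD, with 4.88% and 3.98% of UMIs mitochondrial. The filter kept 38.3% of WT HFD barcodes and 61.6% of HH HFD barcodes, and 53.7% and 34.3% of barcodes had under 2000 genes. The HFD libraries shared 11 barcodes, of which 2 were beta cells in both. In beta cells, markers of other cells were present at low level in both libraries. The 8 endothelial markers summed to 19.7 CPM in WT and 49.1 in HH, 9 macrophage markers to 57.4 and 58.2 CPM, 8 lymphocyte markers to 19.2 and 23.6 CPM, and 7 stromal markers to 8.04 and 28.0 CPM. Among other pancreatic cells, 10 acinar markers summed to 3.05 and 1.75 CPM, 6 ductal markers to 87.6 and 110 CPM, 5 delta cell markers to 81.8 and 101 CPM and 3 PP cell markers to 328 and 510 CPM, and 5 erythroid markers were at 2.53 and 10.7 CPM. The macrophage sum was mostly C1qa, at 45.9 and 38.3 CPM, and the other 8 macrophage markers were all higher in HH, such as Lyz2 at 0.46 and 2.22 CPM and C1qb at 0.67 and 2.84 CPM. The ductal sum was mostly Krt7, at 82.8 and 88.9 CPM, and Spp1 was at 4.44 and 20.6 CPM. Sums or single markers of endothelial, stromal, erythroid, macrophage and ductal cells were thus higher in HH HFD beta cells, and their part in the ratios was not tested. Cd3e of T cells, Reg1 of acinar cells and Alas2 of erythroid cells were at 0 in HH HFD beta cells, and Lepr, Sox9 and Cftr in WT HFD beta cells.

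The log2 ratio was taken for 1303 genes whose level averaged at least 50 CPM over both HFD libraries. These ratios chose the genes described here, so they are a description without a test. Their median was -0.03, with 10% of genes below -0.31 and 10% above 0.29. Genes at 0.5 or beyond numbered 29 higher in HH (2.23% of those tested) and 43 lower (3.3%). In SCD the same 1303 genes ran from -0.16 to 0.09 between the same percentiles, and 2 (0.153%) were higher and 5 (0.384%) lower by 0.5 or more. HH HFD held the highest level of the 4 libraries for 29 of the 29 higher genes and the lowest for 40 of the 43 lower genes. The exceptions were Gm42418, Lars2 and AC149090.1, which were lower still in SCD. Ppy and Pyy among the higher genes, and Mt1 and Hspa1b among the lower, were also past 0.5 in SCD. The SCD ratio had the sign of the HFD ratio for 24 of the 29 higher genes, with an SCD median of 0.16, and for 37 of the 43 lower genes, with an SCD median of -0.12, where the median of all genes was -0.03. In SCD, 469 of all 1303 genes were above 0 and 834 below 0. Across the 1303 genes the HFD and SCD ratios had a Pearson r of 0.51, a description over genes measured in the same 4 libraries. Closest to the limit inside were Btg2 at -0.50, Tmbim4 at 0.50 and Rpl23 at 0.51, and just outside were Reep5 at 0.49, Cited2 at -0.50 (-0.496) and Slc30a8 at -0.49. Around the level limit, the 66 genes between 50 and 52 CPM ran from -0.59 to 0.35, and the 71 between 48 and 50 CPM from -0.46 to 0.59.

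**Figure D1:**
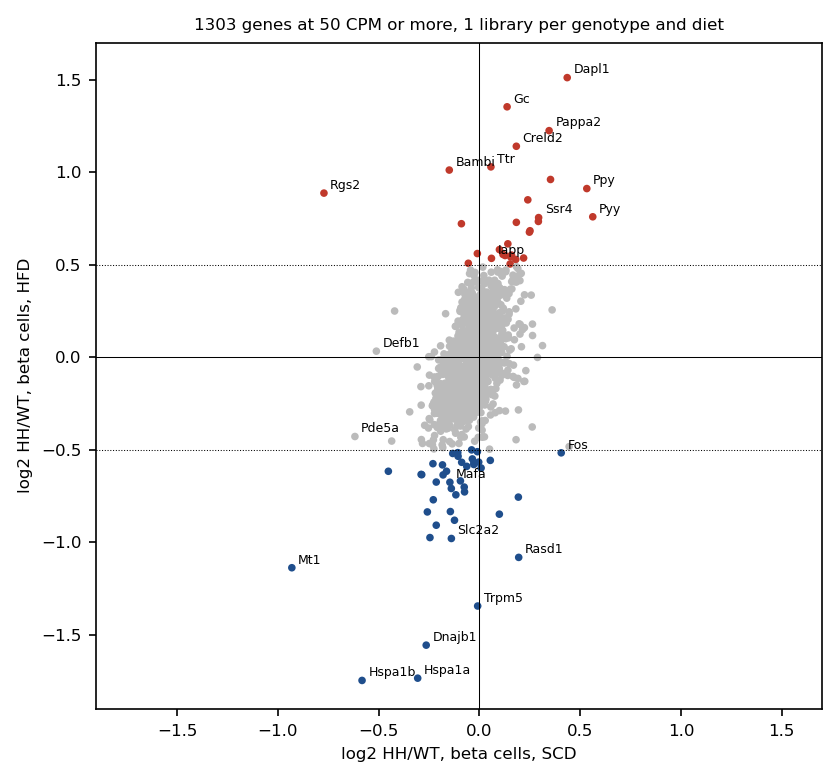
Each point is 1 of 1303 genes, with log2 HH over WT in SCD beta cells on the x axis and in HFD beta cells on the y axis, and dotted lines at 0.5 and -0.5. The 29 higher genes (red) and 43 lower genes (blue) have SCD medians of 0.16 and -0.12, a smaller difference of the same sign for most of them, and Rgs2 lies at -0.77 in SCD and 0.89 in HFD.

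Genes below this level leaned to lower values in HH. Of 6954 genes between 5 and 50 CPM, the median ratio was -0.15, and 79 (1.14%) were higher and 216 (3.11%) lower by 0.5 or more. Ratios also followed transcript length, taken as the longest annotated transcript. Among the 261 genes with transcripts of at most 1249 bases the median was 0.10, and it was -0.15 among the 261 genes with transcripts of 4733 bases or more. In SCD the same groups had medians of -0.00 and -0.09, and in alpha cells of the HFD libraries 0.10 and -0.01. The part of transcript length and depth in the ratios below was not tested.

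The largest ratio among the higher genes was that of Dapl1 (death associated protein like 1, chromosome 2, 59484653 to 59505020 in GRCm38). Its level was 112 CPM in WT HFD and 320 in HH HFD, against 64.5 (WT) and 87.2 (HH) in SCD. The HFD ratio was 1.51 (interval 1.46 to 1.56), or 2.85-fold, against 0.44 in SCD. Gc encodes the vitamin D-binding protein, and stood at 57.7 CPM in WT HFD and 147 in HH HFD, against 28.2 (WT) and 31.0 (HH) in SCD, a HFD ratio of 1.35. Both genes were thus higher in WT HFD than in either SCD library, and higher again in HH HFD. Pappa2, a protease that cuts insulin-like growth factor binding proteins, had 36.4 CPM in WT HFD and 85 in HH HFD, a ratio of 1.22. Ttr, the transthyretin carrier of thyroid hormone and retinol-binding protein, was level in WT SCD, HH SCD and WT HFD at 1285, 1337 and 1337 CPM and stood at 2727 in HH HFD, a ratio of 1.03. Bambi, a pseudoreceptor that limits signalling by the TGF-beta family, was at 37.2 and 75 CPM, a ratio of 1.01 in HFD and -0.15 in SCD. Endothelial cells express it too, and after each cell was thinned to 3000 UMIs it was found in 36.5% and 35.8% of them in WT HFD and HH HFD, against 9.65% and 16.7% of beta cells (51.4% and 64.5% unthinned). Endothelial markers were also higher in HH HFD beta cells, and their part in the Bambi ratio was not tested. Rgs2, which speeds the shut-off of G proteins, also changed sign between the diets, with 139 CPM in WT HFD and 257 in HH HFD (0.89), but 75.4 (WT) and 44.2 (HH) in SCD (-0.77). Pak3, a protein kinase, and Clu, a secreted chaperone, had ratios of 0.73 and 0.72.

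**Figure D2:**
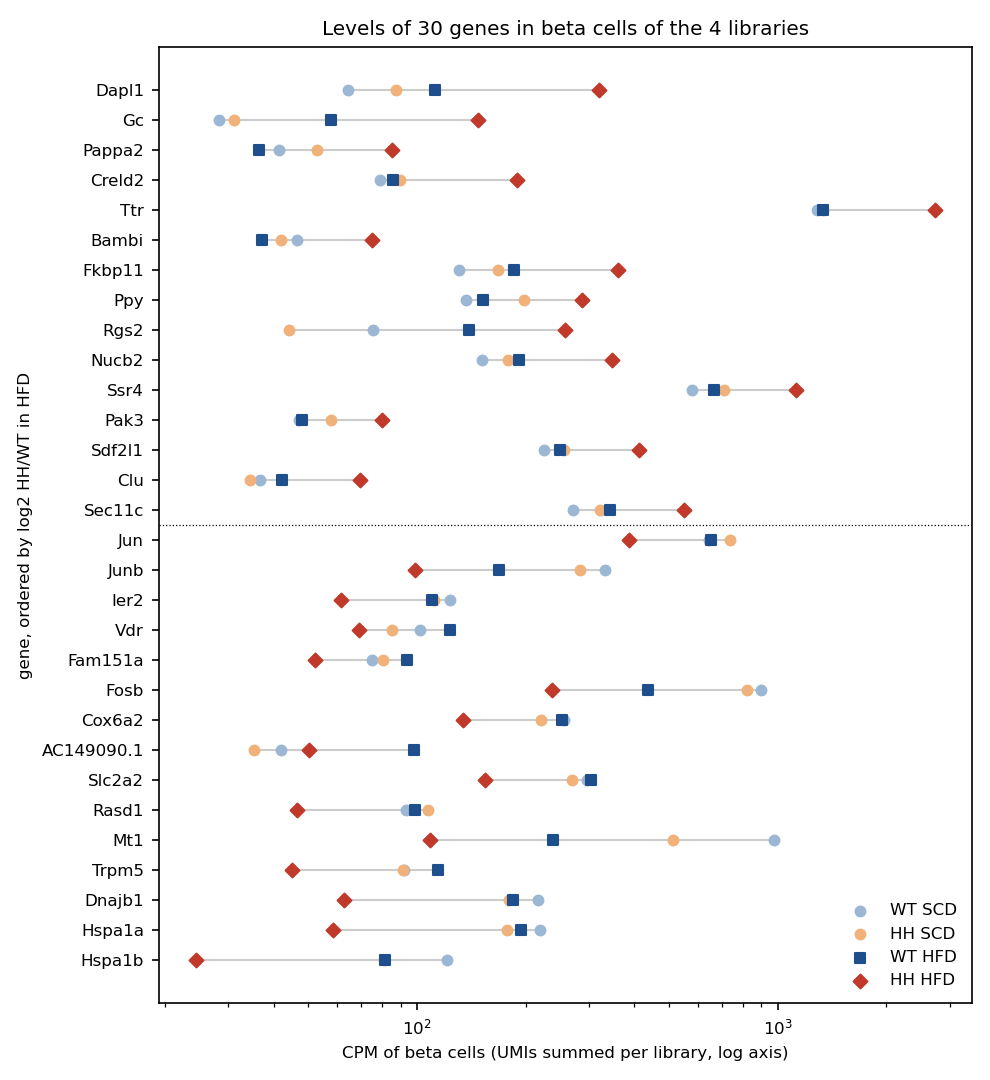
Levels in CPM on a log axis for the 15 genes with the highest and the 15 with the lowest HFD ratio, in the beta cells of the 4 libraries. HH HFD (red diamonds) is the highest library for each of the upper 15 genes and the lowest for the lower 15 apart from AC149090.1.

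The share of cells with a UMI was compared after thinning each cell to 3000 UMIs. Dapl1 was found in 23.8% (interval 21.4 to 26.4%) of WT HFD and 41.7% (39.9 to 43.6%) of HH HFD beta cells, and in 0 of 148 (upper bound 2.46%) and 2.07% of 193 endothelial cells, taken by their markers as cells that should lack it. Gc was found in 15.6% and 31.0% of beta cells against 2.03% and 2.59% of endothelial cells. Without thinning the shares of beta cells were 72.4% and 83.0% for Dapl1 and 64.5% and 77.2% for Gc. Median depths were 29870 and 24250 UMIs in beta cells and 7078 and 6104 in endothelial cells. Thinned shares in endothelial cells were thus well below those in beta cells of either library for both genes.

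Gc and Ttr are also alpha cell genes, so the other alpha markers were read in the same beta cells. The list of 9 summed to 1730 CPM in WT HFD and 3364 in HH HFD, of which most was Ttr. Gcg was at 270 and 431 CPM, a ratio of 0.68 (0.64 to 0.71). The alpha transcription factor gene Irx1 was at 0.15 CPM in both HFD libraries, and Irx2 at 0.90 and 1.11 CPM. Irx1 and Irx2 were therefore near 0 in both libraries, and the intervals of their ratios held 0. Ppy and Pyy, of PP cells, had ratios of 0.91 and 0.76, and Fxyd6, the remaining PP marker, was at 81.4 and 63.4 CPM, a ratio of -0.36 (-0.43 to -0.29). The 1% of HH HFD cells with most Pyy held 46.2% of it. Cells with insulin and another hormone at 1% or more, which the gate left out, were 0.948% (interval 0.474 to 1.69%) of insulin cells in WT HFD, 4.77% (4.04 to 5.59%) in HH HFD, 4.64% in WT SCD and 5.51% in HH SCD. After the profile of free RNA was subtracted, Pyy was at 0.10 and Ppy had no value left, and the part of free RNA in the Gcg ratio was not tested.

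Genes of ER protein folding differed by member. Of 25 ER chaperones and ATF6 targets at 50 CPM or more (of 32 listed), 18 were above 0, 4 were past 0.5 (2.23% over all genes) and none was past -0.5 (3.3%), with a median of 0.14 against -0.03 over all 1303 genes, of which 45.5% were above 0. Their median was 0.08 in SCD, with 20 of 25 above 0. In alpha cells of the HFD libraries it was 0.09, against 0.04 over all 1172 genes measured there. The HFD median was also 0.08 when cells were filtered less strictly or had no bounds on genes. Together they held 7985 CPM in WT HFD and 9313 in HH HFD, and 9147 (WT) and 9548 (HH) in SCD, so that WT HFD was the lowest library and HH HFD lay between the SCD libraries. Creld2, a disulfide isomerase induced by ER stress, was at 85.9 CPM in WT HFD and 189 in HH HFD, against 78.8 (WT) and 89.4 (HH) in SCD, a HFD ratio of 1.14 (1.08 to 1.20). Fkbp11, an ER prolyl isomerase, was at 186 and 361 CPM in HFD and 131 and 167 in SCD, a HFD ratio of 0.96. Sdf2l1, a partner of the Hsp70 chaperone of the ER, had 249 and 413 CPM in the HFD libraries (0.73), and Dnajc3, a J-domain partner of that chaperone, 338 and 495 CPM (0.55). Protein disulfide isomerases had smaller positive ratios, with 0.41 for Pdia6, 0.38 for P4hb, 0.33 for Pdia4 and 0.28 for Pdia3. Hspa5, the ER Hsp70 BiP, was at 0.09, Calr at 0.05 and Hyou1 at 0.02, close to the median of all genes. Xbp1, the transcription factor gene of the IRE1 branch, was the lowest of the list at -0.21. The unfolded protein response list thus split, with Creld2, Fkbp11 and Sdf2l1 apart from BiP and calreticulin. Derl3, an ER-associated degradation gene of this list, averaged under 50 CPM and was named after its values were seen, at 21.1 CPM in WT HFD and 56.3 in HH HFD, a ratio of 1.42.

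Promoter stretches of 3 genes of this list are shown because they hold the ER stress response element that ATF6 binds. The element, CCAAT and CCACG with 9 bases between them, was searched on both strands in the 250 bases before each start site, in RefSeq promoters of GRCm38.p6, and capitals mark the match. It was found in 0.13% of 27025 genes with a RefSeq promoter and in 8 (0.776%) of the 1031 such genes at 50 CPM or more. It was in 7 of 20 ER chaperone genes, and in 2 of 23 higher genes, Creld2 and Dnajc3. Hspa5 carries it as well with a ratio of 0.09, so genes with the element had unequal ratios. A match is a description of these letters, not a binding site shown in these cells. The stretches lie at chr15:88819480-88819578 (plus strand) for Creld2, chr14:118937787-118937885 (plus strand) for Dnajc3 and chr2:34771985-34772083 (plus strand) for Hspa5.
Creld2: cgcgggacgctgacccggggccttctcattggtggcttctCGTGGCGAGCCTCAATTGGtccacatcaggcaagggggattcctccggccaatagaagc
Dnajc3: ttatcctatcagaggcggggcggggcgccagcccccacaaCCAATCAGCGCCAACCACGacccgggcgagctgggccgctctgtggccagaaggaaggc
Hspa5: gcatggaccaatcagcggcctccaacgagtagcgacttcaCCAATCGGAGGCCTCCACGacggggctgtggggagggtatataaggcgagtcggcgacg

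Genes of the ER translocon, of N-glycosylation and of transport vesicles numbered 47 at 50 CPM or more (of 55 listed). The median over the 47 was 0.15 in HFD, 0.06 in SCD and 0.10 in alpha cells (0.04 over all 1172 genes measured there). Of the 47, 39 were above 0 (45.5% over all genes), 4 were past 0.5 (2.23% over all genes) and 0 were past -0.5. The 4 were Ssr4, a subunit of the translocon-associated protein complex (667 CPM in WT HFD and 1125 in HH HFD, ratio 0.75), Sec11c, the catalytic subunit of signal peptidase (342 and 550 CPM, 0.68), its partner Spcs1 (215 and 315 CPM, 0.55), and Tmed3, a p24 cargo receptor (0.54). By complex, the median was 0.30 over 5 signal peptidase genes, 0.30 over 8 oligosaccharyl transferase genes, 0.24 over 4 translocon-associated protein genes and 0.20 over 6 genes of the Sec61 complex and its partners. It was 0.06 over 5 genes of the COPI coat and -0.01 over 4 genes of the COPII coat. Ratios were thus higher for the entry and modification of proteins than for the coats of transport vesicles. Subunits of 1 complex were not alike, since Sec61b was at 0.46 and Sec61a1, the channel itself, at -0.23, the lowest of the list.

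Cargo genes of the secretory granule differed by member. Ins1 was at 148600 CPM in WT HFD and 148190 in HH HFD, and Ins2 at 404660 and 400400 CPM, ratios of -0.00 and -0.02. Iapp, which encodes islet amyloid polypeptide and is co-secreted with insulin, was at 41468 CPM in WT HFD and 60055 in HH HFD, against 37265 (WT) and 38849 (HH) in SCD, a HFD ratio of 0.53. Insulin genes were therefore level where Iapp was 1.45-fold higher. Pam, which amidates peptides such as IAPP, was at 0.56, the granins Scg2 and Chgb at 0.46 and 0.45, and Ptprn, a granule membrane protein, at 0.39. The convertases Pcsk1 and Pcsk2 were at 0.12 and -0.01, and Chga at -0.04. Slc30a8, the granule zinc transporter, was the lowest of the list at -0.49, with 476 CPM in WT HFD and 338 in HH HFD. Over 16 genes the median was 0.13, with 2 past 0.5 (2.23% over all genes) and 0 past -0.5 (3.3%), and in alpha cells the 15 measured genes had a median of -0.05. With beta cells matched for depth and mitochondrial share, the median over the 16 genes was 0.08. Nucb2, the precursor of nesfatin-1, is outside this list and was at 192 and 346 CPM, a ratio of 0.85.

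Ribosomal protein genes were higher by a small and even amount. Of 77 measured, 76 had intervals above 0, against 462 of all 1303 genes, and Rps2 was at -0.00. Only Rpl23, 1 of 77, passed 0.5, a share no larger than the 2.23% over all genes, with 354 CPM in WT HFD and 503 in HH HFD. The median was 0.26 in HFD beta cells, -0.04 in SCD beta cells and 0.13 in HFD alpha cells (0.04 over all 1172 genes measured there). The 46 genes of the large subunit and the 31 of the small subunit had medians of 0.25 and 0.28. Together the 77 genes held 32185 CPM in WT HFD and 38369 in HH HFD, against 33133 and 32362 in SCD. These transcripts are short, with 46 of 77 among the 261 shortest of the 1303 genes, where genes of all kinds had a median of 0.10 and the 168 outside the ribosomal, respiratory and ER lists 0.04. Translation factors had a median of 0.07 over 29 genes, led by Eef1b2 at 0.44.

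Nuclear and mitochondrial genes of the respiratory chain had ratios of opposite sign in all beta cells, though not in cells matched on mitochondrial share. Of 69 nuclear genes, 60 were above 0, against 45.5% of all genes, with a median of 0.15. In alpha cells of the same HFD libraries the median was 0.13 over 68 of them. The median over all genes measured was -0.03 in beta cells and 0.04 in alpha cells. Ndufa1 of complex I alone passed 0.5, with 84.1 CPM in WT HFD and 126 in HH HFD. By complex, the medians were 0.12 over 30 genes of complex I, 0.21 over 8 of complex III, 0.18 over 11 of complex IV and 0.15 over 16 of ATP synthase, but -0.07 over 3 of complex II. All 11 mitochondrially encoded genes were below 0, between -0.32 for mt-Atp6 and -0.17 for mt-Nd4l, with a median of -0.29. In 872 cells per library matched on UMIs and mitochondrial share the median was 0.01, a value that the matching itself sets. Their median was -0.07 in SCD and 0.02 in alpha cells of the same HFD libraries. Cells had been limited to under 10% mitochondrial UMIs in both libraries, and a share of RNA does not tell fewer transcripts from more of the others. Cox6a2, the striated muscle form of a complex IV subunit that beta cells also express, stood apart at 252 CPM in WT HFD and 134 in HH HFD, a ratio of -0.91.

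**Figure D3:**
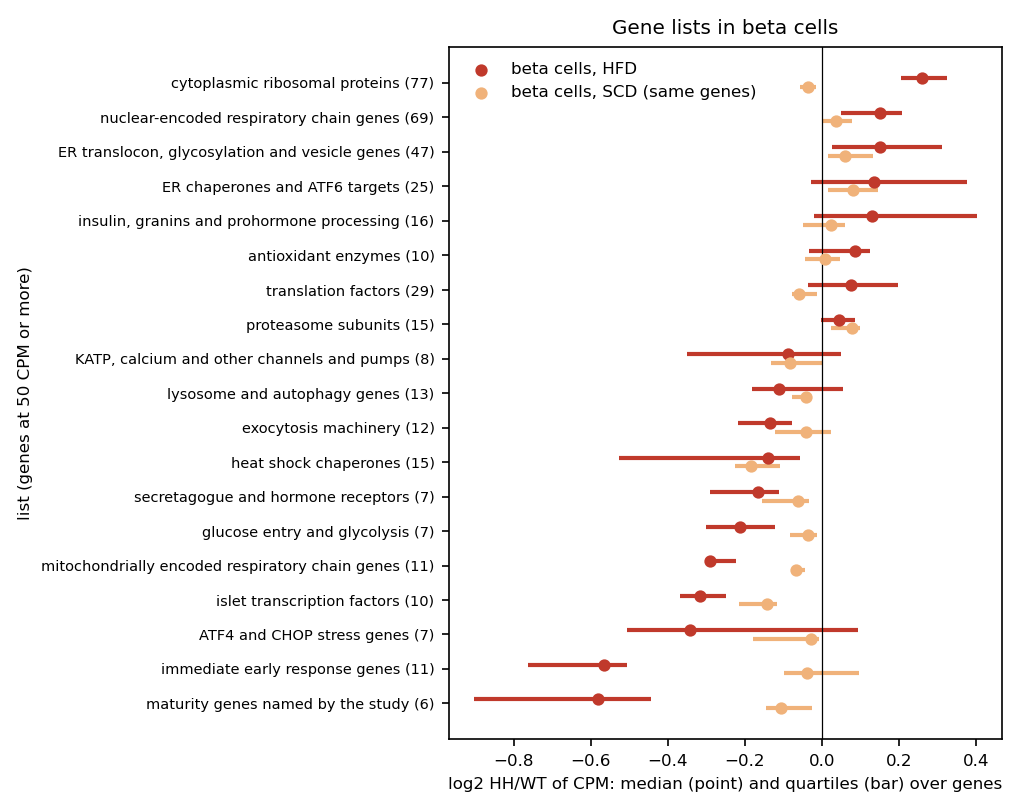
Median (point) and quartiles (bar) of log2 HH over WT over the genes of each list at 50 CPM or more, in HFD (red) and in SCD (orange) beta cells, with the number of genes in parentheses. Ribosomal protein genes are at 0.26 in HFD, and the lists of immediate early genes (-0.57) and maturity genes (-0.58) are the lowest.

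Genes of the mature beta cell were lower in HH HFD. The study took Mafa, Ucn3, Nkx6-1, Slc2a2 and Trpm5 from bulk RNA-seq of islets of the same mouse model and diet. It took Glp1r, Cacna1d and Itpr1 from these libraries, and also showed Mafa and Slc2a2 in them. Genes read by the study from these libraries are no independent evidence of a direction. Of the 8 genes, 6 were at 50 CPM or more, all 6 were below 0, and 3 were past -0.5, against 3.3% of all genes. Trpm5, a calcium-activated cation channel (chromosome 7, 143069153 to 143094642), was at 115 CPM in WT HFD and 45.1 in HH HFD, against 92.2 (WT) and 91.7 (HH) in SCD, a HFD ratio of -1.34 (-1.41 to -1.28). Slc2a2 (chromosome 3, 28697903 to 28731359) was at 303 and 154 CPM in HFD and 297 and 269 in SCD, a HFD ratio of -0.98. Mafa, the insulin gene activator, was at 311 and 195 CPM in HFD and 396 and 358 in SCD, a HFD ratio of -0.67 (-0.71 to -0.64). For all 3 genes HH HFD stood below the other 3 libraries, and their SCD ratios were -0.01, -0.14 and -0.15. Glp1r, the receptor of the incretin GLP-1, was at -0.49, and Nkx6-1 and Ucn3 were at -0.43. Below 50 CPM, the calcium channel genes Cacna1d and Itpr1 were at -0.24 and -0.37. After thinning, Trpm5 was found in 27.2% of WT HFD and 13.5% of HH HFD beta cells, with at most 1.35% in endothelial cells of either library, and before thinning in 87.6% and 52.6%.

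Other identity genes were lower by less. Of 10 islet transcription factor genes at 50 CPM or more, 9 were below 0, against 710 of all 1303 genes, and 1, Mafa, was past -0.5, against 3.3% of all genes, with a median of -0.32 in HFD and -0.14 in SCD. Insm1 was at -0.37, Neurod1 at -0.33, Pdx1 at -0.30, Isl1 at -0.27, Pax6 at -0.24 and Nkx2-2 at -0.19, and St18 at 0.04 was the highest. The 7 genes of glucose entry and glycolysis had a median of -0.21, with Slc2a2 alone past -0.5 and Pgam1 at 0.03. Among 8 channels and pumps the median was -0.09, and it was -0.15 in matched cells and -0.23 with genes down to 20 CPM. Abcc8 of the KATP channel was at -0.12 and the potassium channel Kcnk16 at 0.19. Exocytosis genes had a median of -0.14 over 12 genes with none past 0.5 in either direction, and Snap25 was at 0.03. Lower values among identity genes were therefore largest for Trpm5, Slc2a2 and Mafa. Vdr, the vitamin D receptor, was at 123 and 69.1 CPM in the HFD libraries (-0.84) and Fam151a had a ratio of -0.85. Rasd1, a small G protein induced by glucocorticoid, was at 98.4 and 46.5 CPM (-1.08), and in SCD at 0.20.

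The study followed 4 genes for dedifferentiation and alpha cell expression, named from its bulk islet RNA-seq. It also showed all 4 in these libraries, so they are no independent evidence of a direction. Of the 4, Gc and Ttr are given above and Aldh1a3 and Serpina7 stayed below 50 CPM. Aldh1a3, a retinaldehyde dehydrogenase, was at 1.83 CPM in WT HFD and 10.8 in HH HFD, against 1.45 (WT) and 1.96 (HH) in SCD, a HFD ratio of 2.56 (2.19 to 2.96). Serpina7, which encodes thyroxine-binding globulin, was at 4.70 and 26.2 CPM in HFD and 3.37 and 3.04 in SCD, a HFD ratio of 2.48. Few cells carried much of this RNA, since the 1% of beta cells with most held 31.3% of the Aldh1a3 and 24.1% of the Serpina7 UMIs in HH HFD, and 50.8% and 36.4% in WT HFD. Of the 16 genes known as disallowed in beta cells, none reached 5 CPM.

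Among genes at 50 CPM or more, the lowest ratios were those of inducible chaperones. Hspa1b (chromosome 17, 34956436 to 34959238) was at 81.6 CPM in WT HFD and 24.3 in HH HFD, against 121 (WT) and 80.9 (HH) in SCD, a HFD ratio of -1.75. Hspa1a (chromosome 17, 34969190 to 34972156), its neighbour and near copy, was at 194 and 58.4 CPM in HFD and 219 and 177 in SCD, a HFD ratio of -1.73. Counts of these paralogs can be split by the read assignment and are uncertain for each alone. Dnajb1, their J-domain partner, was at 185 and 62.8 CPM in HFD and 216 and 180 in SCD, a HFD ratio of -1.55, and Dnaja1 was at -0.58. The list as a whole was closer to the median of all genes, which was -0.03. Over 15 genes the median was -0.14 in HFD and -0.18 in SCD, with 4 past -0.5 (3.3% over all genes), and the constitutive chaperones Hspa8, Hsp90ab1 and Hsp90aa1 were at -0.10, -0.06 and 0.00. In alpha cells of the HFD libraries Hspa1b and Hspa1a were at -0.73 and -0.54 and Dnajb1 at -0.20.

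Promoters of these genes are shown for the heat shock element, the repeated GAA unit that HSF1 binds. With 3 units, GAA, TTC and GAA with 2 bases between each, it was found in 0.514% of 27025 genes with a RefSeq promoter. Among the 1031 such genes at 50 CPM or more it was in 8 (0.776%). It was in 0 of 31 lower genes, and in 3 of 11 heat shock chaperone genes, which were Dnajb6, Hspd1 and Hspe1. Its core of 2 units, GAANNTTC, was searched after that result was known and is contained in the longer form. Over all genes the core was in 7.73%, and over the 1031 at 50 CPM or more in 6.01%. It was in 4 of those 31 lower genes, which were Hspa1a, Hspa1b, Dnaja1 and Jun. It was in 7 of the 11 heat shock chaperone genes, among them Dnajb6, which carries both forms and had the highest ratio of the list at 0.03, so genes with the element had unequal ratios. Capitals mark the core. The stretches lie on GRCm38.p6 at chr17:34959295-34959382 (minus strand) for Hspa1b and chr4:40722304-40722391 (plus strand) for Dnaja1, and Hspa1a holds the same 88 bases as Hspa1b at chr17:34972213-34972300 (minus strand). The upstream windows of Hspa1a and Hspa1b were equal at 247 of 250 positions.
Hspa1b: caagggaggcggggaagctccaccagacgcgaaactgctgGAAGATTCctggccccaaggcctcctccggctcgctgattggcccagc
Dnaja1: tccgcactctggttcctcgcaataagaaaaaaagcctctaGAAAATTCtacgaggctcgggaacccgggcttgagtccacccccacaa

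Immediate early genes, which are induced within minutes by depolarisation, growth factors or the dissociation of tissue, were lower as a group. Of 30 listed genes 11 were at 50 CPM or more, all 11 were below 0 and 9 were past -0.5, against 3.3% of all genes, with a median of -0.57. With 872 cells per library, matched for depth and mitochondrial share, it was -0.90 over the 10 genes still at 50 CPM or more. Fosb was at 435 CPM in WT HFD and 236 in HH HFD, against 897 (WT) and 824 (HH) in SCD, a HFD ratio of -0.88. Ier2, Junb, Jun and Egr1 were at -0.83, -0.77, -0.76 and -0.70. Fos was at 675 and 472 CPM in HFD (-0.52) and 787 and 1043 in SCD (0.41), so that HH was below WT in HFD and above it in SCD. In SCD the 11 genes had a median of -0.04, and in alpha cells of the same HFD libraries 0.11. Genes of the ATF4 and CHOP stress response had a median of -0.34 over 7 genes (-0.14 with genes down to 20 CPM), with Ddit3, the gene of CHOP, at 107 CPM in WT HFD and 69.7 in HH HFD (-0.62), Ppp1r15a at -0.58 and Atf4 at -0.34. Asns and Nupr1 of that list were higher, at 0.29 and 0.37.

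Mt1, a zinc-binding metallothionein, was at 239 CPM in WT HFD and 109 in HH HFD, against 976 (WT) and 512 (HH) in SCD. HH was below WT by a similar factor in both diets, with -0.93 in SCD and -1.14 in HFD, and HFD below SCD in both genotypes. In alpha cells of the HFD libraries the Mt1 ratio was 0.36. Gm42418 (2362 and 1522 CPM), Lars2 (153 and 95.6 CPM) and AC149090.1 (98.3 and 50.05 CPM) had HFD ratios of -0.63, -0.67 and -0.97 in beta cells, and -0.68, -0.84 and -0.67 in alpha cells. These 3 genes, grouped after their values were seen, were lower in both cell types of the HH HFD library.

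Alpha cells of the same HFD libraries, 233 in WT and 364 in HH, were read beside the beta cells. Of 1172 genes at 50 CPM or more in both cell types, 5 (0.427%) were higher and 5 (0.427%) lower in HH alpha cells by 0.5 or more. The median over these 1172 genes was 0.04 in alpha cells and -0.02 in beta cells. Of the 24 higher beta cell genes measured in alpha cells, 20 were above 0 there, against 61.8% of all 1172 genes, and 2, Ppy and Pyy, were past 0.5, with a median of 0.15. Of the 28 lower genes measured, 17 were below 0 and 5 were past -0.5, namely Gm42418, Lars2, AC149090.1, Hspa1a and Hspa1b, with a median of -0.04. Dapl1 was at -0.16 in alpha cells, Nucb2 at 0.07 and Ssr4 at 0.16. Creld2 and Fkbp11 averaged under 50 CPM in alpha cells and are outside these counts, with ratios of 0.37 and 0.56. Alpha cells gave 3735976 and 3778031 UMIs in all, so their ratios are less precise than those of beta cells.

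Values per cell showed whether groups of genes differed in a few cells or in most. Ribosomal protein genes held a median of 3.09% of a cell's UMIs in WT HFD (3.22% in WT SCD and 3.14% in HH SCD) and 3.54% in HH HFD, where 73.2% of cells were above the WT HFD median. The spread was also wider, since the 10th and 90th percentiles were 2.54% and 3.96% in WT HFD and 2.71% and 5.12% in HH HFD. Iapp held a median of 3.86% and 5.34%, with 81.2% of HH HFD cells above the WT HFD median and 44.1% above its 90th percentile. For Ttr, the medians were 0.118% and 0.172%, and 38.8% of HH HFD cells were above the WT HFD 90th percentile, against 8.49% of HH SCD cells. The Ttr distributions were closer at their 10th percentiles, 0.0555% and 0.0664%, than at their 90th, 0.219% and 0.496%. Immediate early genes held 0.381% and 0.246%, and 38.6% of HH HFD cells lay below the WT HFD 10th percentile. Insulin shares overlapped almost fully, with 90th percentiles of 60.4% and 60.9%. For ribosomal proteins and Ttr the libraries were therefore further apart in the upper than in the lower cells, and for immediate early genes both ends were lower in HH HFD.

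**Figure D4:**
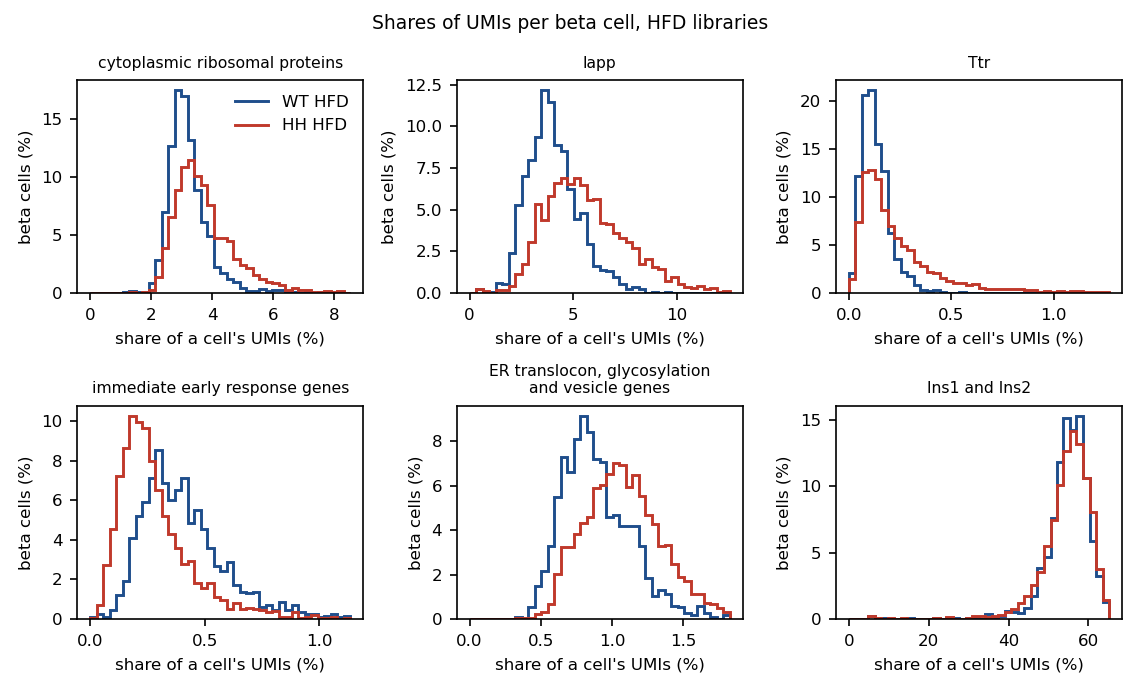
Share of each beta cell's UMIs (x axis, %) held by a gene or list, as the percent of cells per bin (y axis), in WT HFD (blue) and HH HFD (red). Ttr and the ribosomal proteins have a long right tail in HH HFD, and the insulin curves overlap.

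The cells with a high ribosomal share were followed across genes by ranking the beta cells of each library on their ribosomal protein share, cutting them into 4 bins of equal size, and summing CPM without the ribosomal protein genes. In HH HFD, Dapl1 was at 160, 206, 350 and 578 CPM from the lowest to the highest bin, 3.60-fold from first to last (interval 3.45 to 3.77). In WT HFD it was at 108, 104, 116 and 136 CPM, 1.26-fold, and in HH SCD and WT SCD 1.25-fold and 1.32-fold. Ttr was at 1779, 2180, 2848 and 4325 CPM in HH HFD, 2.43-fold, and 1.05-fold in WT HFD. The ratio of last to first bin was 3.15 for Gc, 2.18 for Ssr4, 2.07 for Fkbp11, 1.94 for Creld2 and 1.56 for Iapp in HH HFD, against 1.42, 1.60, 1.43, 1.43 and 1.27 in WT HFD. Genes lower in HH HFD ran the other way. Trpm5 was at 64.0, 61.5, 42.6 and 23.4 CPM, 0.37-fold, Mafa at 264, 246, 178 and 138 CPM, 0.52-fold, and Slc2a2 at 190, 184, 151 and 122 CPM, 0.64-fold, where WT HFD gave 1.11-fold, 1.06-fold and 0.97-fold. Nkx6-1 and Pdx1 showed little gradient in HH HFD, at 0.93-fold and 1.08-fold. The bins were cut within each library and are not matched on ribosomal share between libraries. In the lowest bin the median share was 2.78% in HH HFD and 2.58% in WT HFD. There, HH HFD had Mafa at 264 against 304 CPM in WT HFD. In the same bins Slc2a2 (190 against 306 CPM), Trpm5 (64.0 against 107 CPM) and Iapp (49293 against 37464 CPM) differed as well. In the highest bin, Mafa was at 138 against 322 CPM and Ttr at 4325 against 1427 CPM. The median share there was 4.91% in HH HFD and 3.89% in WT HFD, so the HH HFD gradients span a wider range of shares. The third bin of HH HFD, with a median share of 3.83%, had Mafa at 178 and Ttr at 2848 CPM.

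**Figure D5:**
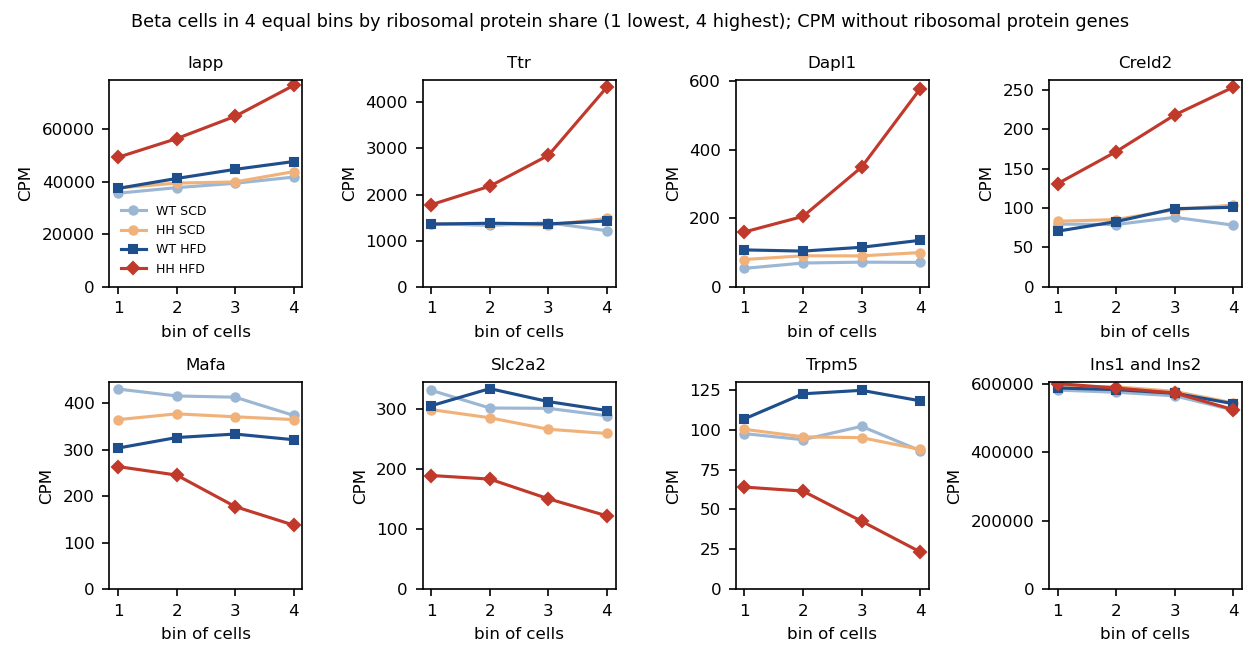
CPM without ribosomal protein genes (y axis) in bins of beta cells ranked by ribosomal protein share (x axis, 1 lowest to 4 highest) in the 4 libraries. Bins were cut within each library, so the same bin holds different shares in different libraries. In HH HFD (red) Ttr goes from 1779 to 4325 CPM and Trpm5 from 64.0 to 23.4 CPM, and the other 3 libraries stay nearly flat for both.

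Further genes were read across the same bins. From first to last bin, immediate early genes were 0.90-fold in HH HFD and 1.15-fold in WT HFD. Hspa1a was 0.77-fold (0.70 to 0.84) in HH HFD and 1.25-fold (1.17 to 1.35) in WT HFD, a contrast like that of Slc2a2. The immediate early sum was 2952 CPM in the lowest bin of HH HFD against 4054 CPM in that of WT HFD. Gcg was 0.95-fold and Ppy 1.05-fold across the bins, while Gc and Ttr were 3.15-fold and 2.43-fold. Nuclear respiratory chain genes had a like gradient in all 4 libraries, between 1.26-fold and 1.39-fold. Aldh1a3 (4.10-fold) and Pappa2 (2.89-fold) had a gradient in HH HFD and also in WT HFD (6.70-fold and 2.95-fold), although Aldh1a3 counts in WT HFD were very low. Median depth went from 20474 UMIs in the lowest bin of HH HFD to 26150 in the highest, and from 28184 to 30206 in WT HFD, and the part of depth in the gradients was not tested.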

How the data were processed

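Islet cells were profiled on the 10x Genomics Chromium system with 3′ v3.1 kits. The deposited files are counts: the authors made UMI counts per gene and barcode with Cell Ranger 6.0 on mm10, per the submitters' processing notes, in 4 libraries of 5307 (WT HFD), 7123 (HH HFD), 5123 (WT SCD) and 4665 (HH SCD) barcodes and 68011082 to 104810105 UMIs. The annotation release is not given in the sources used here. Counting is from 3′ ends, so levels of different genes are not compared.

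Here, UMIs of cells passing the stated filter and gate were summed per library and scaled to CPM in Python 3.11.15 (numpy 2.4.6, scipy 1.17.1). With 1 library per group no test between groups was possible. Intervals of ratios are exact (Clopper-Pearson on the 2 counts, 95%), a group at 0 was set to 3 counts, and all cover counting error only. Differences between mice cannot be told apart from differences between genotypes. Alpha cells had Gcg at 2% or more of UMIs, insulin under 5% and Sst and Ppy under 1%. Endothelial cells had endothelial markers at 0.2% or more and the 4 hormones below the same limits, with Gcg under 1%. Doublets were kept, and Scrublet (scanpy 1.11.5) was run as an alternative.

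Genes named are the 15 highest and 15 lowest ratios at 50 CPM or more whose interval left out 0 and whose UMIs were not concentrated (under 20% in the top 1% of cells), the extremes of each list and its members past 0.5, the genes the study named, and Pax4. Further list members were added after their values were seen, to show the spread of a list. The cells, genes and lists were chosen with earlier results of these data known. Gene positions are from GENCODE M21 on GRCm38, matched by Ensembl ID, and the release behind the deposited counts may be another one. Promoters are from RefSeq on GRCm38.p6, matched by symbol. The ratio code was tested on simulated data. Some results are not reported here.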

Additional observations from a re-analysis of the deposited data

Results flagged for a closer look

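Of the genes past 0.5 in HFD, 24 of 29 higher and 37 of 43 lower had the same sign in SCD. Of all 1303 genes, 469 were above 0 and 834 below 0 in SCD. For 7 genes, the ratio of HH to WT had the other sign in SCD with an interval that left out 0. That change of sign was not tested: there is 1 library for each genotype and diet, and diet and age differ together. Rgs2 was at 0.89 in HFD and -0.77 in SCD, Bambi at 1.01 and -0.15, and Rpl23 at 0.51 and -0.05. Rasd1 was at -1.08 in HFD and 0.20 in SCD, Fam151a at -0.85 and 0.10, Jun at -0.76 and 0.19, and Fos at -0.52 and 0.41.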

How the results depend on the processing

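No paired analysis was possible because each group has 1 library. Results were recomputed under 12 alternatives and 1 more chosen after seeing the data, in which the barcodes with the highest Scrublet scores were left out. Scrublet's own threshold marked 2 of 5307 and 0 of 7123 barcodes and so did not work. The median ratios of the 8 main lists kept their sign in every alternative. The counts of higher and lower genes were 29 and 43. They became 45 and 89 at a minimum of 20 CPM and 6 and 6 at a fold limit of 1 on the log2 scale, and the lower count became 22 at a minimum of 100 CPM. Changing the minimum changes which genes are counted, and the higher limit counts fewer of the same genes. The immediate early median (-0.57) was -0.90 over 10 genes with cells matched on UMIs and mitochondrial share, -0.63 with a looser filter that kept 1904 WT and 3387 HH cells with more mitochondrial UMIs and fewer or more genes, -0.60 without bounds on genes per cell, -0.54 with a median-of-ratios factor and -0.53 with the mean of per-cell CPM. The ribosomal median (0.26) was 0.19 with the looser filter and 0.22 without bounds on genes. The granule list median (0.13) was 0.08868 with the looser filter, 0.09146 without bounds on genes and 0.08173 in matched cells. The maturity median (-0.58) was -0.50 with the mean of per-cell CPM and -0.49 at a minimum of 100 or of 20 CPM. The ER chaperone median (0.14) was 0.22 at 100 CPM and 0.08 with the looser filter or without bounds on genes, and the translocon median (0.15) was 0.11 in matched cells. The mitochondrially encoded median (-0.29) was 0.0109 in matched cells, as matching on the mitochondrial share sets it. The cause of the other differences was not tested. Of 48 named genes past 0.5, 38 stayed past it in each of the 10 alternatives run on single genes (9 for Ppy), and Btg2, Dnajc3, Fos, Iapp, Pam, Pyy, Rhob, Rpl23, Spcs1 and Txn1 did not. Subtracting free RNA left no value for Ppy and gave Pyy 0.10. The scaling alternatives moved all ratios by 0.02 and 0.03. Matched cells, 872 per library, had medians of 29374 and 29288 UMIs. With 1 library per group the spread between mice is unknown, which more depth would not change.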

Other observations

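Members of several lists between 5 and 50 CPM are given as counts beside the background of that level, where 3.11% of genes were past -0.5 and 1.14% past 0.5. The lists given are among those with most genes past -0.5. Past it were also 0 of 16 proteasome genes, 0 of 16 aminoacyl tRNA synthetase genes, 0 of 16 fatty acid oxidation genes and 1 of 16 lysosome and autophagy genes. Of 13 circadian clock genes 5 were past -0.5 and 0 past 0.5. The 5, named after their values were seen, were Per3 (-1.30), Dbp (-0.87), Tef (-0.83), Nr1d1 (-0.78) and Nr1d2 (-0.63), known as targets of the CLOCK and BMAL1 factors, and Arntl, the gene of BMAL1, was at 0.27. In SCD the same 5 genes were between -0.15 and -0.07.

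Of 18 cholesterol synthesis and SREBP2 target genes at that level 5 were past -0.5, namely Hmgcs1 (-0.75), Stard4 (-0.68), Idi1 (-0.57), Srebf2 (-0.57) and Msmo1 (-0.54), named after their values were seen. Of 11 interferon-stimulated genes 5 were past -0.5, with Irf7, named after its values were seen, at -1.39 in HFD and -1.03 in SCD, and 1% of the cells held 51.9% of its UMIs in WT HFD and 53.4% in HH HFD. Of 13 immediate early genes at that level 6 were past -0.5 and 0 past 0.5. Vgf, the granin-like gene of a secreted peptide precursor, was at 10.9 CPM in WT HFD and 27.2 in HH HFD, a ratio of 1.33 chosen after its value was seen.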
